A study of Homo sapiens with 4 samples.

Results

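FOXK2 binding was examined at 10 genes that mark or set the epithelial or the mesenchymal state of a cell: the epithelial genes CDH1, EPCAM and GRHL2, and the mesenchymal genes SNAI1, SNAI2, ZEB1, ZEB2, TWIST1, CDH2 and VIM. FOXK2 is a forkhead transcription factor, and its ChIP-seq was carried out in OVCAR5, an ovarian cancer cell line labelled high grade serous and obtained from ascites, grown in RPMI medium with serum and used at passage 4 to 6. There was a single condition with 2 biological replicates of 1 cell line, and each replicate has its own list of peaks called with HOMER on hg38. Every peak that its list assigned by gene name to 1 of the 10 genes was taken, which gave 9 of 12471 peaks in replicate 1 and 18 of 27281 peaks in replicate 2. A list assigns a peak to the gene with the nearest transcription start site (TSS), at any distance, so an assigned peak is a position of binding and not a measured effect on that gene. Expression was not measured in these lists, so the epithelial or mesenchymal state of the cells could not be checked from them against marker levels. The paper also reports RNA-seq of OVCAR5, which was not used here.

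In the epithelial-mesenchymal transition, cells loosen their junctions and gain motility, and in ovarian cancer the program is known for its part in spread through the peritoneal cavity. SNAI1, SNAI2, ZEB1, ZEB2 and TWIST1 encode transcription factors that drive it, and the SNAI and ZEB proteins repress CDH1, the gene of E-cadherin, by binding CACCTG sites. GRHL2 encodes a grainyhead factor that keeps epithelial genes active and opposes ZEB1, EPCAM encodes an epithelial adhesion molecule, and CDH2 and VIM encode N-cadherin and vimentin, which are typical products of mesenchymal cells.

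The sequences below are bound stretches of CDH1, ZEB1, TWIST1 and CDH2, shown for the base patterns in them and read from the forward strand of hg38 at the replicate 2 coordinates. For CDH1 both the peak that the list assigned to it and a stronger peak inside the gene are shown, because they differ in replicate overlap. The ZEB1 peak is shown as a pair of 26-base stretches. Capitals mark matches on either strand to the forkhead heptamer TGTTTAC or its looser form TGTTTNC, which includes TGTTTAC, to the AP-1 site TGANTCA, to the SNAI and ZEB site CACCTG, which reads as CAGGTG from the other strand, and to the grainyhead site AACCNGTT.
CDH1 upstream peak, chr16:68707716-68707972: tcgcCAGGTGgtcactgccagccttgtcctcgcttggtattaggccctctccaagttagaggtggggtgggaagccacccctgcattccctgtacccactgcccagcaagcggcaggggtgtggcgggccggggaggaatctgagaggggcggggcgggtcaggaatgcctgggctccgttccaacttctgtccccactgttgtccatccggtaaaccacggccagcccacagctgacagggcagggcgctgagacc
CDH1 intron peak, chr16:68792826-68793082: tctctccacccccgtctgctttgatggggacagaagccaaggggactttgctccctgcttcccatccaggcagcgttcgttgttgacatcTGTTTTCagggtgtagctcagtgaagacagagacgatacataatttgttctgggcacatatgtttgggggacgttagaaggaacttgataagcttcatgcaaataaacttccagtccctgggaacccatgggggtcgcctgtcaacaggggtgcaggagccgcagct
ZEB1 promoter, first stretch, chr10:31319121-31319146: tgtcgtaaacCAGGTGcggtggggag
ZEB1 promoter, second stretch, chr10:31319239-31319264: cggatggcccCAGGTGtaagcgcaga
TWIST1 upstream peak, chr7:19122018-19122274: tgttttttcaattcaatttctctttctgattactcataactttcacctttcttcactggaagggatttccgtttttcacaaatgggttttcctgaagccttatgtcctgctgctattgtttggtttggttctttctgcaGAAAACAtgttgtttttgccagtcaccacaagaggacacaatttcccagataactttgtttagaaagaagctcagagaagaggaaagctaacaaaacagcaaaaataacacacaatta
CDH2 upstream peak, chr18:28366823-28367079: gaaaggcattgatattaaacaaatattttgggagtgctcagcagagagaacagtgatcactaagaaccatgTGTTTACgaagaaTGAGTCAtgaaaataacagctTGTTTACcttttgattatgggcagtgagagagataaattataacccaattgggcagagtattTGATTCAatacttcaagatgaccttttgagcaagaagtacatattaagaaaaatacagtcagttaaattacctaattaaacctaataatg

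The CDH2 stretch holds TGTTTAC at 2 positions and a match to TGANTCA at 2 positions. The CDH1 intron stretch and the TWIST1 stretch hold the looser forkhead form alone, as TGTTTTC and as GAAAACA, which is TGTTTTC read on the other strand. Both ZEB1 stretches hold CAGGTG, and the CDH1 upstream stretch holds CAGGTG at its edge. None of the printed stretches has a match to AACCNGTT. A match describes the letters of the window and does not show which protein was bound there.

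FOXK2 peaks that carried the gene's name were found for GRHL2, SNAI2, ZEB1, TWIST1 and CDH2 in both replicates, for CDH1 and EPCAM in replicate 2, and for SNAI1, ZEB2 and VIM in neither. Peaks inside CDH1 and EPCAM with another name or none are described further on. Thus 5 of the 10 genes had a peak in replicate 1, where 31.3% of 20052 protein-coding genes had one, and 7 had a peak in replicate 2, where 51.7% did. In both replicates it was 5 of 10 genes (50%, Wilson 95% interval 23.7% to 76.3%) against 28.6% of protein-coding genes, an interval that includes the background. The same 5 of 10 genes had a peak that overlapped between the replicates by at least 1 bp, against 25.5% of protein-coding genes. Most protein-coding genes with a peak in both replicates had an overlapped one too, 5109 of 5734. A peak in either replicate was found for 7 of 10 genes, against 54.4%. The interval covers counting error only, and with 1 condition no test between conditions was possible. Whether the share of genes with a peak moves with the stretch of genome nearest to a gene's start was not tested. In the reference annotation this stretch had a median of 0.129 Mb for the 10 genes and 0.041 Mb for 19149 protein-coding genes, 83.6% of which had a narrower one. Counted by position, 11 and 19 peaks lay in the stretches of the 10 genes, or 5.25 and 9.07 per Mb, below the 5.54 and 11.7 of all protein-coding genes. With the peaks named for the genes in place of those in the stretches, it was 4.29 and 8.59 per Mb, against 5.84 and 12.6.

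**Figure D1:**
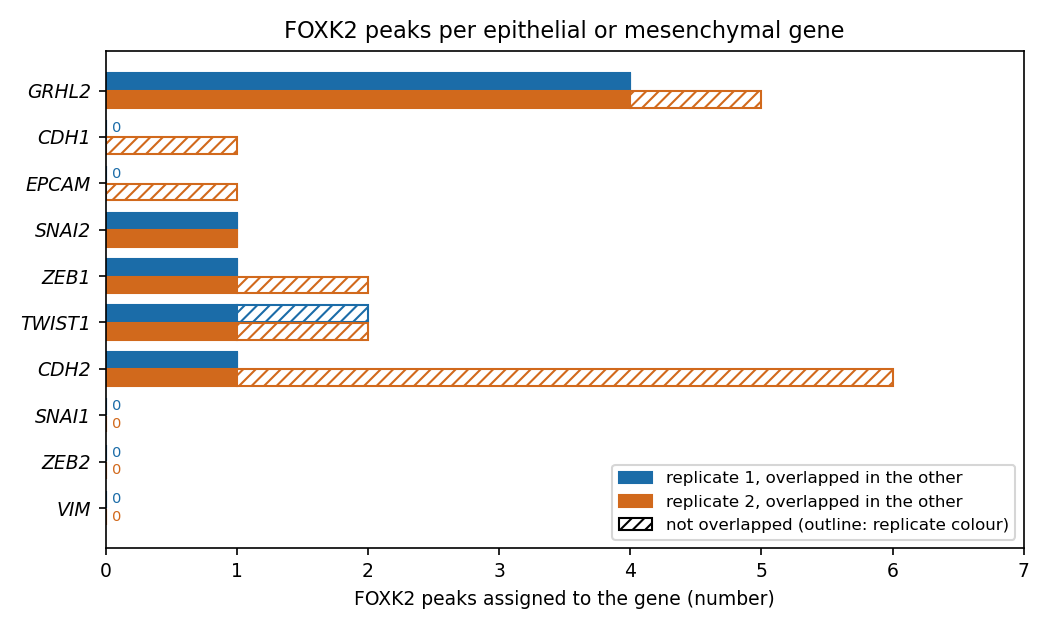
Number of FOXK2 peaks assigned to each of the 10 genes (x axis) in replicate 1 (blue) and replicate 2 (orange). Filled bars are peaks overlapped by a peak of the other replicate and hatched bars are peaks that are not. GRHL2 has 4 overlapped peaks in each replicate, CDH2 has 6 peaks in replicate 2 of which 1 is overlapped, and SNAI1, ZEB2 and VIM have 0.

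Peaks of these genes in replicate 1 were mostly found again. Of the 9, 8 overlapped a replicate 2 peak (88.9%, Wilson 95% interval 56.5% to 98.0%), against 74.9% of the whole list. In the longer replicate 2 list, 8 of 18 overlapped a replicate 1 peak (44.4%, 24.6% to 66.3%), against 34.2%. Both background shares lie inside the intervals.

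Depth differed between the lists. Peak scores are tag numbers scaled to the library, and every score below 10 lay on a regular step, of 0.189 in replicate 1 and 0.149 in replicate 2. If 1 step is 1 tag, the weakest listed peak held 16 tags in replicate 1 and 21 in replicate 2, and the median peak held 31 and 49. Scores were therefore compared as percentiles within a list, where 100 is the strongest peak. Peaks of the 10 genes had a median of 34 tags in replicate 1 and 49.5 in replicate 2, with median percentiles of 57.3 and 50.5, so as a group they were of middling strength. Their range was wide, with percentiles of 17.0 to 92.7 in the first list and 1.21 to 97.5 in the second.

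The strongest pair of peaks lay at GRHL2, and the peaks of CDH2 were all below percentile 35 in their lists. The 3 epithelial genes had a median percentile of 81.5 over 4 peaks in replicate 1, all of them at GRHL2, and of 73.2 over 7 peaks in replicate 2. The mesenchymal genes, 4 of 7 of which had a peak, had 38.9 over 5 peaks and 22.2 over 11. CDH2 held 6 of those 11, and without it the mesenchymal medians were 48.1 over 4 peaks and 55.8 over 5. Without GRHL2 the epithelial genes kept 2 peaks, both in replicate 2, with a median of 67.5. In replicate 2, 4 of the 7 epithelial peaks and 4 of the 11 mesenchymal peaks overlapped a replicate 1 peak (57.1% and 36.4%). The share over the whole list was 34.2%. This order rested on single genes, since 0 of 2 epithelial peaks overlapped without GRHL2 and 3 of 5 mesenchymal peaks without CDH2. In replicate 1, 4 of 4 epithelial and 4 of 5 mesenchymal peaks overlapped, against 74.9% of the whole list. The difference between the gene groups was not tested, since peaks of 1 gene are not replicates of a group.

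**Figure D2:**
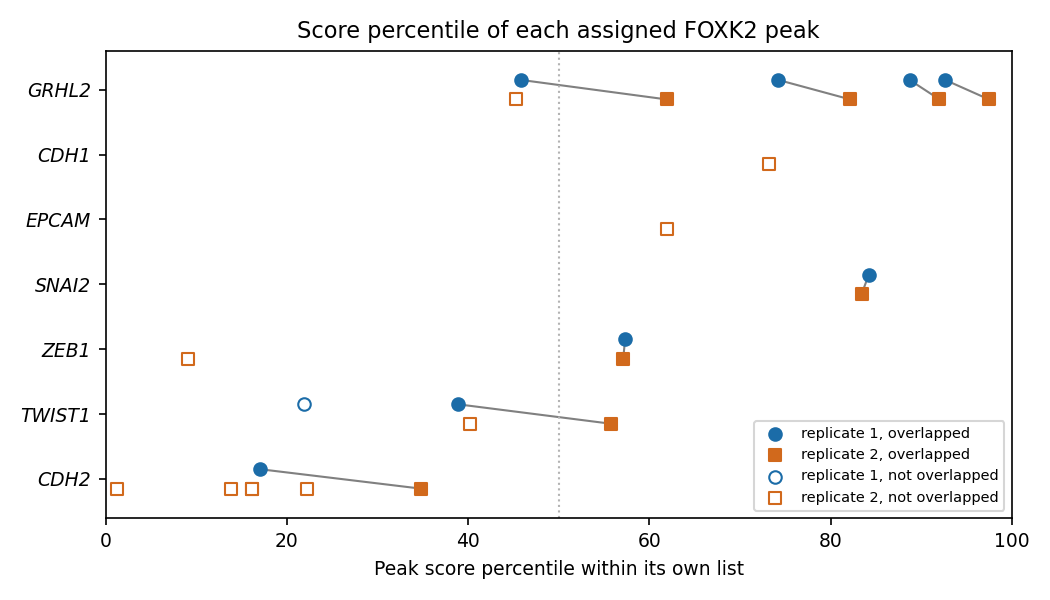
Percentile of the peak score within its own list (x axis) for each assigned peak, by gene. Circles are replicate 1, squares are replicate 2, filled symbols joined by a line are overlapping pairs, open symbols are peaks without a partner, and the dotted line is at 50. The GRHL2 pair at the top right has percentiles of 92.7 and 97.5, while the CDH2 peaks all lie below 35.

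GRHL2 had more overlapped FOXK2 peaks than any other of the 10 genes. It held 4 peaks in replicate 1 and 5 in replicate 2, and all 4 of replicate 1 had a partner. Among the 6785 gene names with at least 1 overlapped peak, 176 had 4 or more.

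The strongest GRHL2 peak, and the strongest of all 10 genes, lay upstream of the gene on chromosome 8, at chr8:101467187-101467397 in replicate 1 and chr8:101467169-101467425 in replicate 2. It was classed as intergenic, at -25147 bp and -25142 bp from the TSS, and falls in an intron of an unnamed lncRNA of GENCODE. It held 69 tags in replicate 1 (exact Poisson 95% interval 53.7 to 87.3) and 185 in replicate 2 (159 to 214), and ranked 906 of 12471 and 681 of 27281. TGTTTAC lay 0 bp from the centre of the replicate 1 peak, and the same site lay 5 bp from the centre in replicate 2. A weaker upstream pair, at chr8:101451184-101451394 and chr8:101451234-101451490, -41150 bp and -41077 bp from the TSS, reached percentiles of 45.9 and 61.9 with 30 and 58 tags, and also held TGTTTAC.

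The other overlapped GRHL2 peaks were inside the gene. In intron 8 of 15, at chr8:101608033-101608243 in replicate 1, the peak held 59 tags and ranked 1375, and in replicate 2, at chr8:101608004-101608260, it held 120 tags and ranked 2148. This peak had none of the 5 motifs in either replicate, although its percentiles were 88.7 and 92.0. In intron 11, at chr8:101635655-101635865 and chr8:101635768-101636024, the paired peaks held 43 and 85 tags and overlapped by 98 bp, with centres 136 bp apart, so the position agreed less well than at the other sites, where centres lay at most 73 bp apart. They shared a TGACTCA match, an AP-1 site. A further peak in intron 2, with 46 tags and TGTTTAC, was listed in replicate 2 and had no partner.

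Scores were high across chromosome 8 as a whole, where the median percentile was 75.6 in replicate 1 and 74.6 in replicate 2, against 49.1 and 48.5 on the other chromosomes. GRHL2 and SNAI2 both lie there. Ranked within their own chromosome, the strongest GRHL2 pair still stood at 83.3 and 94.2 and the intron 8 pair at 75.2 and 82.6, while the -41 kb pair fell to 21.2 and 34.4. The median of all peaks of the 10 genes became 47.7 and 39.4 on this scale. The medians of the epithelial genes became 61.5 and 62.1 and those of the mesenchymal genes 33.3 and 30.3, so the order of the groups was kept. Without CDH2 the mesenchymal medians on this scale were 49.8 and 49.4. Without GRHL2 the epithelial genes had 0 peaks in replicate 1, and a median of 58.3 over 2 peaks without a partner in replicate 2. What raises the scores of the chromosome was not tested, and the input libraries were not analysed here.

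At CDH1, the peak that carried the gene's name and the strongest peak inside the gene were different ones. The named peak, printed above as the upstream stretch, was at -29446 bp from the TSS and inside the neighbouring cadherin gene CDH3 of GENCODE, outside its canonical transcript. It held 70 tags in replicate 2 (54.6 to 88.4), at percentile 73.2, and had no partner in replicate 1. Of the 500 replicate 2 peaks closest to it in rank, 52.8% had a partner, so the lack of one is common at this strength.

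Inside CDH1, chr16:68737292-68835537, there were 2 further peaks in replicate 1 and 4 in replicate 2 that the lists did not name CDH1. They were looked for after the named peaks had been seen. In intron 2, at chr16:68792851-68793061 in replicate 1 and chr16:68792826-68793082 in replicate 2, a peak lay 55664 bp and 55662 bp downstream of the start of CDH1. It held 50 tags in replicate 1 (37.1 to 65.9) and 140 in replicate 2 (118 to 165), at percentiles of 82.5 and 94.9. This was stronger than the named CDH1 peak, and was found in both replicates. Among all peaks named for or lying in the 10 genes it stood behind 2 GRHL2 peaks and the SNAI2 peak in replicate 1, and behind the strongest GRHL2 peak in replicate 2. The lists gave it, as the nearest TSS, a non-coding transcript without a gene name 50440 bp and 50438 bp away, so a search by gene name does not return it.

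The other peaks in CDH1 were found in 1 replicate each. In replicate 1 a peak of 25 tags lay in intron 2. In replicate 2 intron 2 held peaks of 80 and 40 tags, and a peak of 28 tags in exon 5 was named for the downstream gene TANGO6. The peak of 80 tags, at chr16:68790403-68790659, lay close to the shared one and stood at percentile 79.7.

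**Figure D3:**
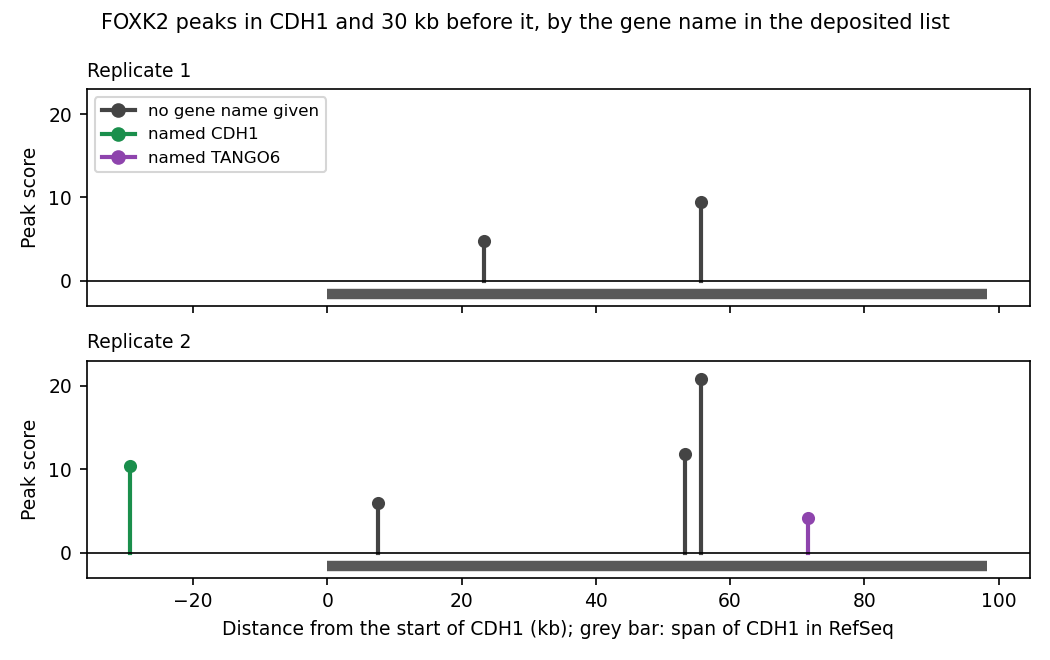
FOXK2 peaks in CDH1 and in the 30 kb before it, by distance from the start of the gene (x axis, kb) and peak score (y axis), in replicate 1 (top) and replicate 2 (bottom). Colours give the gene name in the list and the grey bar is the span of CDH1. The peak with scores of 9.43 and 20.8 is present in both replicates and has no gene name, while the peak named CDH1 is present in replicate 2.

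EPCAM showed the same kind of split. In replicate 2 the peak named EPCAM was at 856 bp from the TSS, in intron 1 of 8 and in a CpG island, with 58 tags at percentile 61.9 and a GC content of 72.4%. It had no partner, as was the case for most of its 500 rank neighbours, of which 40.0% had one. In replicate 1 a peak of 24 tags in intron 6 of EPCAM was named for MIR559, a microRNA gene within EPCAM, and did not overlap the replicate 2 peak.

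When peaks were assigned by position, with the centre in the gene or in the 5000 bp before it, 6 of the 10 genes had a peak in both replicates, against 29.4% of 19117 protein-coding genes. CDH1 and EPCAM entered and CDH2 dropped out, since its peaks lie outside the gene. By this rule each of the 3 epithelial genes and 3 of the 7 mesenchymal genes (SNAI2, ZEB1 and TWIST1) had a peak in both replicates, although the EPCAM peaks did not overlap.

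Among the transcription factors that drive the transition, SNAI2, ZEB1 and TWIST1 each had 1 overlapped peak near the start of the gene. At SNAI2, which encodes SLUG, the peak was in a CpG island at -2153 bp and -2134 bp from the TSS, at chr8:48923488-48923698 and chr8:48923446-48923702. It held 52 tags in replicate 1 (38.8 to 68.2) and 88 in replicate 2 (70.6 to 108), at percentiles of 84.2 and 83.4, or 66.4 and 64.0 within its chromosome. A TGAGTCA match lay 2 bp from the centre in replicate 1 and a CAGGTG match 16 bp from it, and TGTTTAC was not in the window.

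The ZEB1 peak was the 1 peak of the promoter class in each replicate among the 10 genes, against 21.7% of all replicate 1 peaks and 18.0% of all replicate 2 peaks. It was at chr10:31319111-31319321 in replicate 1 and chr10:31319111-31319367 in replicate 2, 44 bp and 67 bp from the TSS, over exon 1 of 9 of ZEB1 and an intron of the antisense lncRNA ZEB1-AS1. It held 34 tags (23.6 to 47.5) and 54 tags (40.6 to 70.5), at percentiles of 57.3 and 57.1, or 70.5 and 69.5 within its chromosome. SNAI2 thus ranked above ZEB1 over the whole lists and below it within chromosomes. With a GC content of 70.4% and CAGGTG at 2 positions, it had no forkhead match. A further ZEB1 peak in replicate 2, at 261210 bp from the TSS, held 28 tags and stood at percentile 9.03.

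The TWIST1 peak was weaker. At -4455 bp and -4474 bp from the TSS it held 28 tags (18.6 to 40.5) in replicate 1 and 53 tags (39.7 to 69.3) in replicate 2, at percentiles of 38.9 and 55.8. A replicate 1 peak of 24 tags at 85700 bp and a replicate 2 peak of 43 tags at 183840 bp, in an intron of the histone deacetylase gene HDAC9, were not shared.

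SNAI1, which encodes SNAIL, and ZEB2 had no assigned peak. The nearest peak to SNAI1 was 46555 bp from the gene in replicate 1, at the promoter of RNF114, and 34609 bp away in replicate 2. Within 100000 bp of the SNAI1 start there was 1 peak in replicate 1 and 7 in replicate 2, none of which was named SNAI1. ZEB2 differed in that 0 peaks lay within 100000 bp of its start in either replicate. The nearest to its RefSeq span was 118361 bp away in replicate 1, named TEX41, and 12600 bp away in replicate 2, named GTDC1. The latter, chr2:144371353-144371609, falls inside the longer GENCODE span of ZEB2, which runs from 144364364 to 144521057. Binding below the weakest listed score, 3.02 in replicate 1 and 3.12 in replicate 2, would not be seen.

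CDH2 had weak peaks and VIM had no named peak. For VIM, the nearest peak was 406547 bp from the gene in replicate 1 and 126460 bp in replicate 2. CDH2 had 1 peak in replicate 1 and 6 in replicate 2. Its shared peak, in a LINE repeat at -189513 bp and -189505 bp from the TSS, held 23 tags in replicate 1 (14.6 to 34.5) and 40 in replicate 2 (28.6 to 54.5). It had percentiles of 17.0 and 34.8, the lowest of all the shared peaks, and yet carried TGTTTAC at 2 positions and an AP-1 match at 2 positions, as printed above. The 5 unshared CDH2 peaks held 24 to 34 tags, and the farthest was at -977667 bp.

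Most of these peaks were far from a TSS. Distances from the TSS had a median size of 41150 bp in replicate 1 and 83932 bp in replicate 2, against 16140 bp and 20161 bp over the whole lists. A wide stretch around a gene, as described above for these genes and reaching 0.705 Mb at CDH2 in the reference, allows such distances, and its part in them was not tested. Beyond 100000 bp were 3 of 9 and 9 of 18 peaks, against 14.5% and 16.3% of all peaks, and within 10000 bp were 3 and 4, against 42.8% and 37.9%. CDH2 held 6 of the 18 replicate 2 peaks. All 6 were intergenic, and all but the peak at -26892 bp lay beyond 100000 bp. The median distance without CDH2 was not computed. By class, 6 of 9 and 12 of 18 were intergenic, against 34.1% and 36.5% of all peaks, and 2 and 5 were intronic, against 39.0% and 40.6%. Their median focus ratio, the fraction of a peak's tags on the expected side of its centre, was 0.74 and 0.733, against 0.758 and 0.755.

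**Figure D4:**
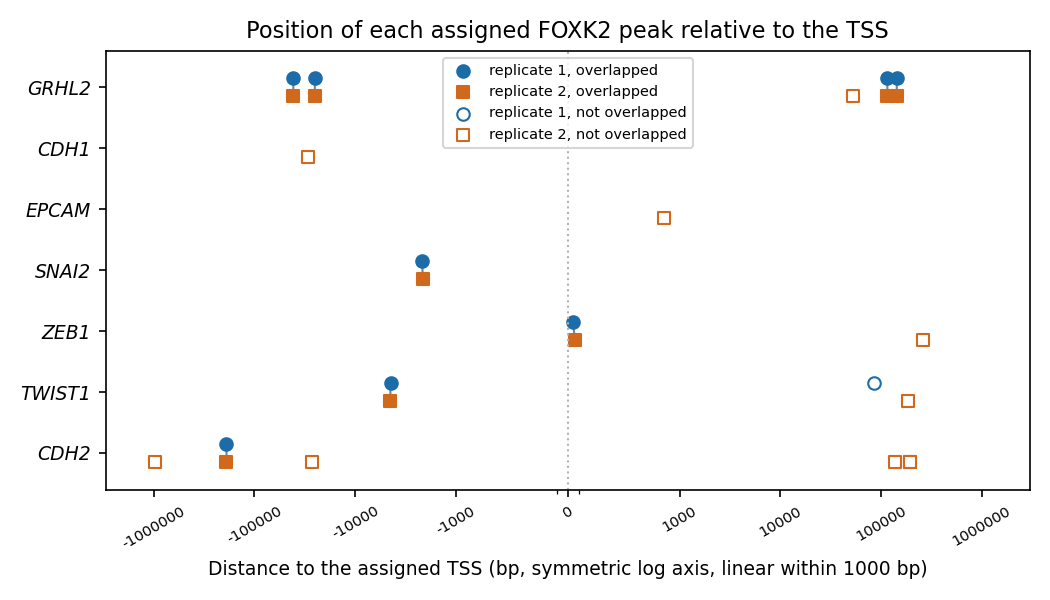
Signed distance from each assigned peak to the TSS (x axis, bp, on a symmetric log scale that is linear within 1000 bp) for the 7 genes with a peak. Circles are replicate 1, squares are replicate 2, filled symbols are overlapped by the other replicate and open ones are not. SNAI2, TWIST1 and ZEB1 have their shared peak within 5000 bp of the TSS, while the shared GRHL2 and CDH2 peaks lie at least 25142 bp away.

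The share of peaks with the forkhead heptamer at these genes was near that of the whole lists. TGTTTAC lay within 100 bp of the centre in 3 of 9 peaks in replicate 1 (33.3%, Wilson 95% interval 12.1% to 64.6%), against 30.5% of all peaks and 2.88% of windows 2000 bp to either side. In replicate 2 it was in 5 of 18 (27.8%, 12.5% to 50.9%), against 28.2% and 2.89%. All of these matches were at GRHL2 and CDH2. The looser TGTTTNC was in 55.6% and 33.3%, against 45.9% and 43.8% of all peaks and 15.7% and 16.2% of the flanking windows. CACCTG was in 22.2% of the peaks in each replicate, against 14.0% and 14.2% of all peaks and 18.1% and 17.6% of the flanking windows. TGANTCA was in 33.3% and 16.7%, against 20.8% and 21.0%. AACCNGTT was in 0 of 9 and 0 of 18, with upper Wilson limits of 29.9% and 17.6%, and was rare in all peaks, at 1.64% and 1.71%. With so few peaks, no difference from the whole lists was detectable.

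Further genes of each state gave a wider view. Of 25 other epithelial genes, 15 had a peak in both replicates (60%, Wilson 95% interval 40.7% to 76.6%) and 14 had an overlapped one. Of 25 other mesenchymal genes, 9 had a peak in both (36%, 20.3% to 55.5%) and 6 had an overlapped one. The background was 28.6% for a peak in both and 25.5% for an overlapped one. For a peak in both replicates, the epithelial interval lies above the background and the mesenchymal one includes it. The intervals of the 2 lists overlap. In replicate 1 alone, 16 epithelial and 9 mesenchymal genes had a peak, against 31.3% of protein-coding genes. In replicate 2 alone, 17 and 14 of 25 had one, against 51.7%. No interval was made for either replicate alone. The 2 gene lists were put together with earlier results of these data known, so the counts are a description.

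**Figure D5:**
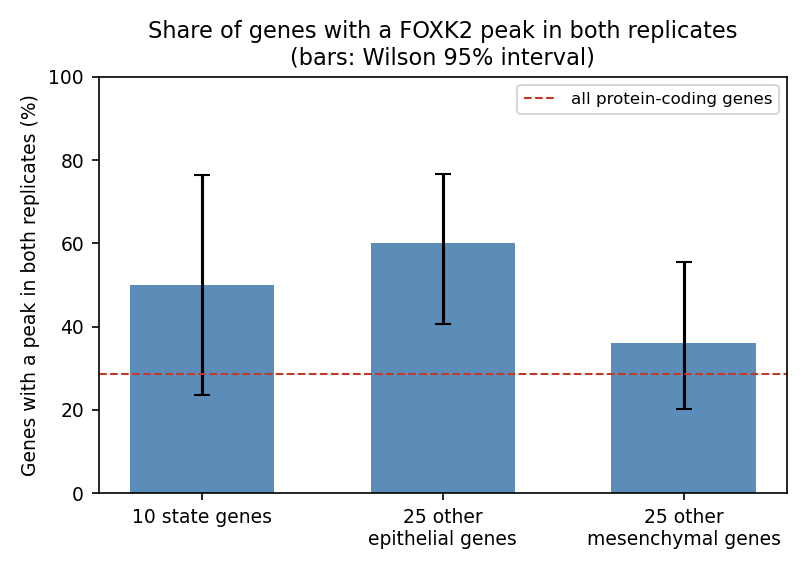
Share of genes with a FOXK2 peak in both replicates (y axis, percent) for the 10 genes and for the further 25 epithelial and 25 mesenchymal genes. Error bars are Wilson 95% intervals and the dashed line is the share of all protein-coding genes, 28.6%. The shares are 50%, 60% and 36%, with intervals that overlap each other.

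The epithelial genes with the strongest shared peaks were ELF3, GRHL1, KRT8 and CTNND1. ELF3 and GRHL1 encode epithelial transcription factors, the latter of the same family as GRHL2, and their peaks had scores of 10.9 and 25.7, and of 10.6 and 22.3, in replicates 1 and 2. KRT8 encodes a keratin of simple epithelia, and its promoter peak at -86 bp and -53 bp from the TSS, with TGTTTAC, scored 10.2 and 19.0. CTNND1 encodes p120 catenin, which binds E-cadherin, and its intronic peak scored 9.62 and 15.3. The median peak of the lists scored 5.85 and 7.29. The 4 genes were picked for their high score percentiles, so their place above it does not describe the epithelial list. Another gene of that list, CLDN4, had a shared peak that scored 4.34 and 6.39.

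The mesenchymal genes with the strongest shared peaks were TGFBI, TNC, TWIST2 and AXL. TGFBI encodes an extracellular matrix protein induced by TGF-beta, and its peak in intron 8 of 16 scored 17.7 and 34.5, ranking 388 of 12471 and 387 of 27281, higher than any peak of the 10 genes. TNC, the gene of the matrix protein tenascin C, had a peak with TGTTTAC that scored 7.55 and 14.3. TWIST2, a relative of TWIST1, scored 7.73 and 11.0, and AXL, a receptor tyrosine kinase gene, scored 6.6 and 11.7. CDH11 and GRHL3 are named here after their values were seen. CDH11, a mesenchymal cadherin gene, had 4 and 8 peaks of which 0 were shared. GRHL3, a grainyhead gene of the epithelial list, had 3 peaks in each replicate, all of them shared. These 2 genes do not stand for their lists. TJP1, an epithelial gene, had 1 of 4 replicate 1 peaks shared, and TGFBI had 2 of 2. In replicates 1 and 2, 22 of 29 and 22 of 47 epithelial peaks were shared, and 7 of 14 and 7 of 29 mesenchymal ones. Over the whole lists it was 74.9% and 34.2%.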

How the data were processed

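FOXK2 ChIP-seq libraries of OVCAR5 were sequenced by the authors as single-end 50-bp reads, mapped to hg38 with Bowtie2 2.2.6 and called with HOMER 4.10, separately for each replicate. The deposited lists give each peak a score (tags scaled to the library), a focus ratio (a fraction between 0 and 1, computed by the authors' HOMER run) and the signed distance in bp to the nearest TSS, with that gene's name. The lists were used as deposited, with 210 bp and 256 bp from start to end of each peak. The 2 input libraries were not used here, and how HOMER used the input is not given in the sources used here.

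The members and gene lists were chosen with earlier results of these data known. All 10 genes are named. Peaks overlapped by at least 1 bp between replicates, and the best peak of a gene with none, are placed by coordinates or by distance from the TSS. Sequences are of the best such peak of a gene, and not every one is reported here. Of each list of 25 further genes, the 4 with the best mean score percentile over a shared pair are named. Shares carry Wilson intervals and tag numbers exact Poisson intervals at 95%. Both cover counting error only, and reads without molecular identifiers are not independent molecules. Tag numbers assume that 1 step of the score is 1 tag. All scores under 50 lay on the step, within 0.01 below 10 and within 0.1 above. With steps of 0.189 and 0.149, a tolerance of 0.1 passes any score. The check therefore bears on scores below 10 alone. No test was made, because there was 1 condition.

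Motif matches on either strand were counted up to 100 bp from a peak's centre. Genes came from GENCODE release 44, RefSeq and hg38, on which every peak lay within its chromosome. The stretch nearest to a gene was taken from GENCODE starts, from which the lists' TSS can differ: for 59.3% and 59.5% of peaks the listed TSS lay within 10 bp of one. The medians without GRHL2 or CDH2, the count by position in these stretches and the backgrounds of the alternatives were added after seeing the data. Alternatives covered score, list length, overlap, distance, class, assignment, motif window and each replicate left out. Overlap and motif counting was tested on simulated data with known counts, and the largest difference in 8 checks was 0. Python 3.11.15, numpy 2.4.6, pandas 2.3.3, scipy 1.17.1, pysam 0.24.0 and matplotlib 3.10.9 were used.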

Additional observations from a re-analysis of the deposited data

How the results depend on the processing

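Of 47 alternative values, 31 stayed within the spread allowed and 16 moved. These values have no sign to change. The cause of each move was not tested unless the setting itself leaves fewer peaks. Of the 10 genes, 5 had a peak in both replicates. This became 3 with the higher-scoring part of each list, 3 with peaks within 10000 bp of the TSS and 1 with promoter peaks alone, while the share of protein-coding genes went from 28.6% to 17.1%, 16.9% and 9.30%. It became 5 without replicate 2 and 7 without replicate 1, where 31.3% and 51.7% of protein-coding genes had a peak. The 15 further epithelial genes became 9 within 10000 bp. The count was 16 of 25 without replicate 2 and 17 of 25 without replicate 1, against 31.3% and 51.7% of protein-coding genes. The 9 further mesenchymal genes became 5 with the higher-scoring part and 5 within 10000 bp. Here the count was 9 of 25 without replicate 2 and 14 of 25 without replicate 1, against the same 31.3% and 51.7%. The share of replicate 1 peaks with a partner became 100% in the higher-scoring part, where it was 88.4% of all peaks, and that of replicate 2 became 77.8% with lists of equal length, where it was 60.0%. TGTTTAC was in 66.7% of replicate 1 peaks within 500 bp of the centre, a window in which 38.4% of all peaks and 13.2% of the flanking windows held it. In the higher-scoring part of replicate 1 it was in 20% of the peaks at these genes and 35.7% of all peaks. The median percentile of replicate 1 became 47.7 within the own chromosome, 65.8 over peaks with a partner and 51.6 within 100000 bp, and that of replicate 2 became 39.4, 72.0 and 61.9. Within the own chromosome both medians thus went from above 50 to below it. No paired analysis was possible because the peak lists used here hold no values of a second group and the results come from no test. The weakest listed peaks scored 3.02 and 3.12, and what sets this floor was not tested.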
